A study of Mus musculus with 8 samples.

Results

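The miR-23/27/24 clusters of the mouse are a pair of short stretches of the genome, each transcribed as 1 precursor that is cut into 3 hairpins. The 9 arms described here were chosen by name, and not by a measured value, as arms of the miR-23a/27a/24-2 cluster and of the miR-23b/27b/24-1 cluster among the 1079 murine miRs of the array. In the names of the array they are mmu-miR-23a-3p, mmu-miR-27a-3p, mmu-miR-27a-5p and mmu-miR-24-2-5p of the former, mmu-miR-23b-3p, mmu-miR-27b-3p, mmu-miR-27b-5p and mmu-miR-24-1-5p of the latter, and mmu-miR-24-3p, which both make; the prefix of the species is left out below. Of the 9 arms, 7 were detected on all 8 arrays and 2 on none. The 7 detected arms had higher mean signals in the Nonunion group, by 0.24 to 0.76 on the log2 scale after normalization, and no single difference passed the threshold after adjustment for the 310 miRs tested. The highest, that of miR-24-1-5p, was 0.44 when both of its probes were summed on every array.

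A miR is a short RNA that pairs with messenger RNAs and lowers their translation or stability. Pairing rests mainly on the seed, which is bases 2 to 8 of the mature miR. Each hairpin yields a 5p and a 3p arm, and one of them, the guide, usually accumulates while the other, the passenger, is mostly degraded. In bone, miR-23a is known to bind the messenger of Runx2, the transcription factor that starts osteoblast differentiation, and the miR-23a/27a/24-2 cluster is known to restrain osteoblast differentiation. The arms of miR-27 are known for repressing adipocyte formation and for acting in endothelial cells, and miR-24 for targeting regulators of the cell cycle.

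The mice were adult animals of the CD-1 strain, of both sexes, whose femur was cut and held by a pin and a clip. In the Nonunion group (P13 to P16) the gap was 1.8 mm wide and the periosteum next to it was stripped. In the Union group (P17 to P20) the gap was 0.25 mm wide. Gap width and stripping therefore differ together between the groups, and callus was taken at day 7, when the outcome of healing could not yet be seen. Each group had 4 mice with 1 array each, the labels do not give the sex or age of single animals, and no unoperated bone was measured.

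The sequences below show which arms can share targets, since arms of equal seed were measured by separate probes. They are RefSeq mature sequences, which name 8 of the 9 arms, written 5′ to 3′ with the seed in capitals. The arm without a sequence is miR-23b-3p, so its seed was not compared with that of miR-23a-3p.
miR-23a-3p: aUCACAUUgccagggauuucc
miR-27a-3p: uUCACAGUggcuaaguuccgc
miR-27b-3p: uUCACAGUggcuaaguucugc
miR-24-2-5p: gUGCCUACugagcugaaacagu
miR-24-1-5p: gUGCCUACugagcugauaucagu
miR-24-3p: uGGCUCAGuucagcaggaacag
miR-27a-5p: aGGGCUUAgcugcuugugagca
miR-27b-5p: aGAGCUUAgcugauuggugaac
The 3p arms of miR-27a and miR-27b share their seed and differ by 1 base, C19U, counted from 1 at the 5′ end of miR-27a-3p. Whether their probes tell such near-equal arms apart was not tested. The 5p arms of miR-24-2 and miR-24-1 also share a seed. The former has 22 bases and the latter 23. Set side by side from the 5′ end without gaps, they differ at 5 bases, by A17U, C19U, A20C, G21A and U22G, counted in miR-24-2-5p. The later of these would change if a gap were allowed. The undetected pair miR-27a-5p and miR-27b-5p, also set without gaps, differ at 8 bases, of which G3A lies within the seed. MiR-24-3p has the same sequence from both of its hairpins, so that its signal cannot be divided between the clusters.

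In RefSeq's annotation of GRCm38.p6, the hairpins of miR-23a, miR-27a and miR-24-2 lie in this order at chr8:84208518-84208921 on the plus strand. These 404 bases are in no annotated protein-coding gene, and Nanos3 and Zswim4 are the nearest ones on the sides. The hairpins of miR-23b, miR-27b and miR-24-1 span 792 bases at chr13:63300484-63301275, also on the plus strand, and lie within the gene Aopep. The arrays were designed on another assembly, mm9, and no coordinates of theirs were used.

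The levels are Agilent scanner signals, which say nothing of the order of levels between different arms because each arm has its own probes. Every arm had 40 spots on each array. For the 5 guide arms, the 3p arms of miR-23a, miR-23b, miR-27a, miR-27b and miR-24, all 40 spots were well above background on every array, and the error given by the scanner software was 7.12 to 8.61% of the signal. The passenger arms were dimmer. For miR-24-2-5p, 29 to 40 spots were above background and the error was 9.26 to 12.8%, and for miR-24-1-5p, 19 to 26 spots and 11.6 to 18.5%. No spot of these arms was saturated. MiR-27a-5p and miR-27b-5p were called not detected on all 8 arrays, with at most 1 of 40 spots above background for the former and 0 for the latter. The same held for the remaining passenger arms of the clusters, miR-23a-5p with at most 2 such spots and miR-23b-5p with at most 1. These 4 arms were measured by 14 probes in all, whose signals ran from -2.22 to 1.82, and no level or fold is given for them.

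Facts of the whole series that touch these values are few. The summed signal of all murine miRs was 183589 to 279341 in the Nonunion group and 227941 to 360063 in the Union group. The lowest sum belonged to P16, which also had the fewest detected miRs, 324 against 354 to 391 on the other arrays. All arrays were on 1 slide, on which each row held 1 group, so that row and group cannot be told apart. The callus label was checked against miRs known from single tissues. Cartilage miRs were detected on all arrays, and so were miRs of muscle, red blood cells and leukocytes. In such mixed tissue, fewer cells of a type and less of a miR per cell cannot be told apart.

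Among the arms of the miR-23a/27a/24-2 cluster, the 3 detected arms that are made only there were higher on every Nonunion array than on every Union array. This did not hold for all of them under other processing, nor for them only: with normexp background correction miR-23a-3p and miR-24-2-5p overlapped and miR-27b-3p was apart, and with averaged spot signals miR-23a-3p overlapped and miR-27b-3p was apart. Values are log2 signals after quantile normalization, which gives miRs of equal rank on different arrays the same value, and differences are Nonunion minus Union with the standard error (SE) from limma. MiR-23a-3p, the arm that targets Runx2, measured 11.47, 11.36, 11.47 and 11.32 on P13 to P16 and 11.10, 11.10, 11.23 and 11.23 on P17 to P20. All Nonunion values lay above all Union values, but the step between P16 and the highest Union arrays was small. The means were 11.41 ± 0.08 (SD, n = 4) and 11.17 ± 0.08, and the difference was 0.24 (SE 0.16), an FC of 1.18. MiR-27a-3p measured 10.80, 10.98, 10.88 and 10.75 in the Nonunion group and 10.41, 10.41, 10.69 and 10.63 in the Union group. Here, too, the groups were apart, with P19 the nearest of the Union arrays to P16, and the difference was 0.32 (SE 0.17), an FC of 1.25.

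MiR-24-2-5p, the passenger arm of the same cluster, measured 5.02, 4.87, 4.89 and 4.78 in the Nonunion group and 4.38, 4.36, 4.55 and 4.62 in the Union group. The groups did not overlap, and the difference was 0.41 (SE 0.17), an FC of 1.33. The exact permutation test over the 70 arrangements of the arrays gave a two-sided p of 0.0286 for each of these 3 arms, the smallest that 4 against 4 arrays allow. The limma fit over all 310 tested miRs gave unadjusted p of 0.171 for miR-23a-3p, 0.0958 for miR-27a-3p and 0.0379 for miR-24-2-5p, and adjusted p of 0.387, 0.378 and 0.322. Of all tested miRs, 4 (1.29%) had groups apart with the Nonunion group higher. This share rested on single arrays: it was 24.2% (75 miRs) without P19 and 9.03% (28 miRs) without P14, with 3 of the 7 arms apart each time. In the values of all 8 arrays, none of the 7 arms was among the 2.58% with groups apart the other way. The remaining higher one was miR-132-3p, named here because it completes this count, with a difference of 0.95 (SE 0.28).

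For the arms of the miR-23b/27b/24-1 cluster the groups overlapped. The mean differences of its guide arms, 0.32 and 0.33, lay within the range of the 3 arms above, and that of its passenger arm was larger. MiR-23b-3p, the paralogue of miR-23a-3p, measured 10.30, 10.22, 10.30 and 9.87 on P13 to P16 and 9.80, 9.57, 10.09 and 9.94 on P17 to P20. P16 lay below P19 and P20, and the other 3 Nonunion arrays lay above all Union arrays. The difference was 0.32 (SE 0.20), an FC of 1.25, with limma p of 0.138 and adjusted p of 0.386. MiR-27b-3p measured 9.57, 9.51, 9.51 and 9.30 in the Nonunion group and 9.30, 8.73, 9.51 and 9.03 in the Union group. Only P13 lay above every Union array, since P19 was level with P14 and P15 and P17 with P16. Its difference of 0.33 (SE 0.21), an FC of 1.26, had a limma p of 0.156 and an adjusted p of 0.386.

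MiR-24-1-5p, the passenger arm of this cluster, had the largest difference of the 7 arms. It measured 4.47, 4.37, 4.58 and 3.88 in the Nonunion group and 3.76, 3.08, 3.56 and 3.88 in the Union group. P16 was level with P20 and the other 3 Nonunion arrays stood above all Union arrays. The difference was 0.76 (SE 0.25), an FC of 1.69, with a limma p of 0.0130, an adjusted p of 0.288 and an exact permutation p of 0.0571. This difference depended on how the scanner software merged the probes, as described below.

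MiR-24-3p, the guide arm made by both clusters, measured 11.27, 11.23, 11.36 and 10.88 in the Nonunion group and 10.88, 10.80, 11.16 and 10.80 in the Union group. P16 was level with P17 and below P19. The difference was 0.27 (SE 0.19), an FC of 1.21, with a limma p of 0.185 and an adjusted p of 0.387. Exact permutation gave p of 0.0857 for miR-24-3p and for miR-23b-3p, and 0.2 for miR-27b-3p.

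**Figure D1:**
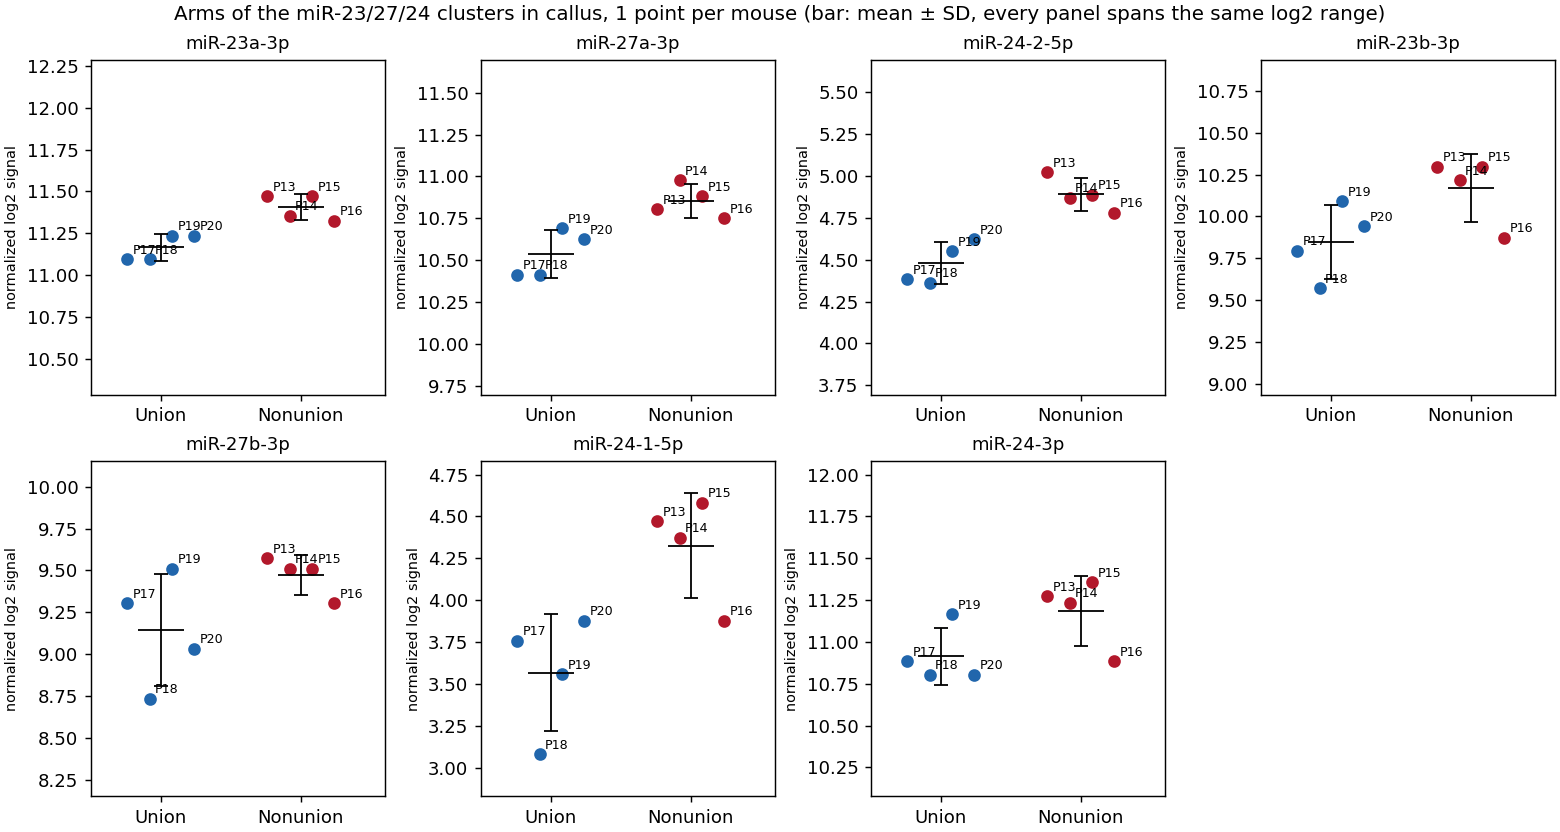
Normalized log2 signal of the 7 detected arms, 1 panel per arm and 1 labelled point per mouse, Union in blue and Nonunion in red, with the mean and SD of 4 mice as black bars. The groups are apart for miR-23a-3p, miR-27a-3p and miR-24-2-5p, and P16 is the lowest Nonunion point in all 7 panels.

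The lowest array of each group was the same across the arms, and the highest was not. P16 was the lowest Nonunion array for 7 of 7 arms, and P18 was the lowest or level with the lowest Union array for 7 of 7. P19 was the highest or level with the highest Union array for 5 arms and P20 for 3, and in the Nonunion group P13 and P15 were so for 4 arms each. Under the scaling to the 75th percentile described below, P14 and not P16 was the lowest Nonunion array for miR-23a-3p and miR-27a-3p. When P16 was left out, 6 of the 7 arms had groups that did not overlap, against 2.78% of all miRs then tested, a count that follows in part from P16 being the lowest Nonunion array and supports nothing. Leaving out P20 gave 4 of the 7 arms, against 3.21% of all miRs then tested. Leaving out any other array gave 3 of the 7 arms, against 1.27% (without P18) to 24.2% (without P19). Mice of 1 group share a surgical procedure and a row of the slide, and whether the summed signal of P16 bears on its values was not tested.

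Set beside the background of the array, 7 of 7 arms had a difference above 0, against 59.4% of the 310 tested miRs. The median difference was 0.32 over the arms and 0.15 over all tested miRs. The median over all tested miRs changed with the processing and was -0.10 without normalization. Why it lay above 0 here was not tested. Relative to the median of all tested miRs, the arms stood higher by 0.09 for miR-23a-3p to 0.61 for miR-24-1-5p. With both probes summed on every array, as described below, the latter stood higher by 0.31. At an unadjusted limma p of 0.05, the size of p that the study set for its own tests, 2 of the 7 arms were higher in the Nonunion group, miR-24-1-5p and miR-24-2-5p, against 9.68% of all tested miRs. With the probes summed, only miR-24-2-5p was, against 8.71%. After adjustment by Benjamini-Hochberg, 0 of the 7 arms and 1 of 310 miRs (0.323%) had a limma p under 0.05, and no arm reached an FC of 2, which 8.39% of the tested miRs did in either direction.

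**Figure D2:**
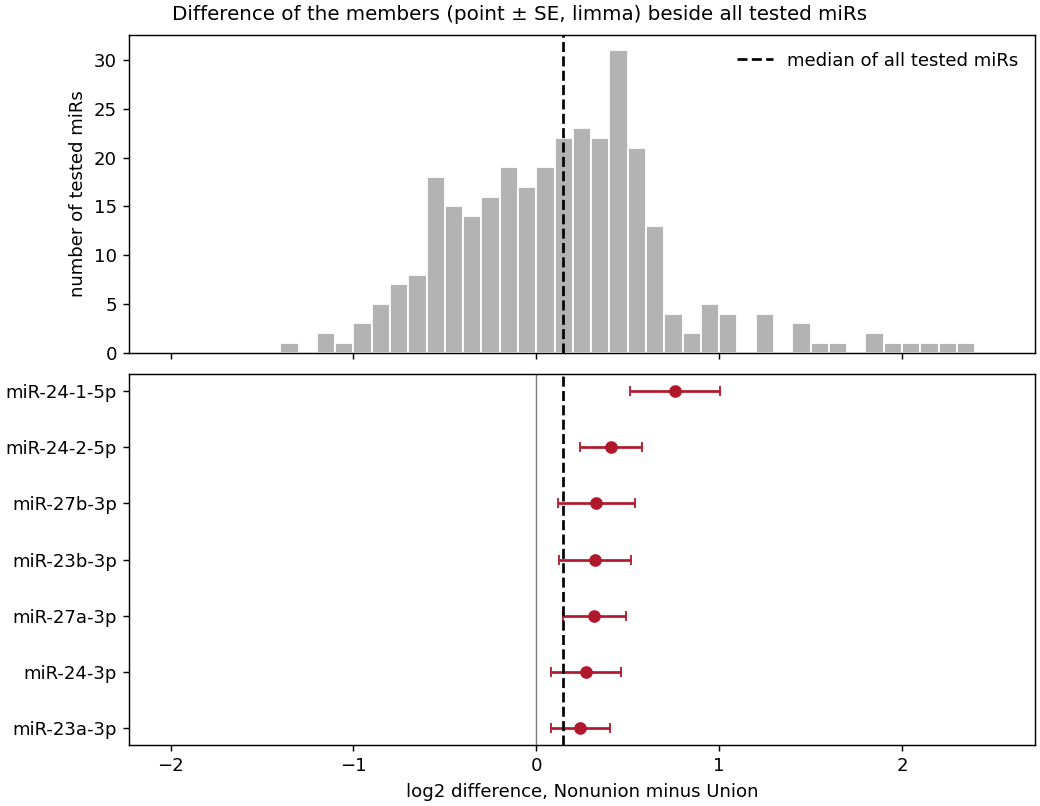
Upper panel, the number of tested miRs by log2 difference, Nonunion minus Union, and lower panel, the difference of the 7 arms with its SE on the same axis. All 7 arms lie to the right of the dashed line, the median of 0.15 over the 310 tested miRs. MiR-24-1-5p lies above 90% of the tested miRs and the other arms above 57.4% to 69.0%. The upper panel does not draw miR-351-5p (2.67) and miR-574-3p (3.05), which lie beyond its bins.

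Before normalization, the groups of every arm overlapped. Signals of miR-23a-3p were 1984 to 2880 on the Nonunion arrays and 2137 to 2626 on the Union arrays, and those of miR-27a-3p were 1536 to 1955 and 1373 to 1699. For miR-24-3p they were 1705 to 2653 and 1792 to 2203. In each case P16 was the dimmest Nonunion array, and the means differed in the same direction as after normalization, by 0.13, 0.23 and 0.24 on the log2 scale. Without normalization, 0 of 7 arms had groups apart (1.61% of all tested miRs) and the median of all tested miRs was -0.10, and all 7 arms stayed above 0. The limma p was then under 0.05 for 0 of the 7 arms, against 6.13% of all tested miRs in this direction.

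Scaling each array to the 75th percentile of its detected miRs set the groups of 6 arms apart, against 2.26% of all tested miRs, and left miR-24-1-5p overlapping. Other processing gave fewer, with 4 of 7 arms apart (4.19% of all tested miRs) under the 75th percentile of all murine miRs, 3 (2.26%) with averaged spot signals and 2 (2.26%) with normexp. With the percentile over the detected miRs the limma p was under 0.05 for 5 arms, miR-23b-3p, miR-27a-3p, miR-27b-3p, miR-24-1-5p and miR-24-3p, against 10.3% of all miRs for the same direction. The differences were then 0.46 for miR-27a-3p, 0.46 for miR-24-3p, 0.51 for miR-23b-3p and 0.56 for miR-27b-3p. In all 21 settings, the one of the text included, the 7 arms were above 0 and above the median of all tested miRs. These settings reuse the same arrays. The lowest arm stood above the median by only 0.0019 without P20. The fit with no filter aside, 40.3% (no normalization) to 64.1% (without P20) of all tested miRs were above 0. The smallest adjusted p of any arm was 0.0890 in limma, for the merged signal of miR-24-1-5p with P19 left out.

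**Figure D3:**
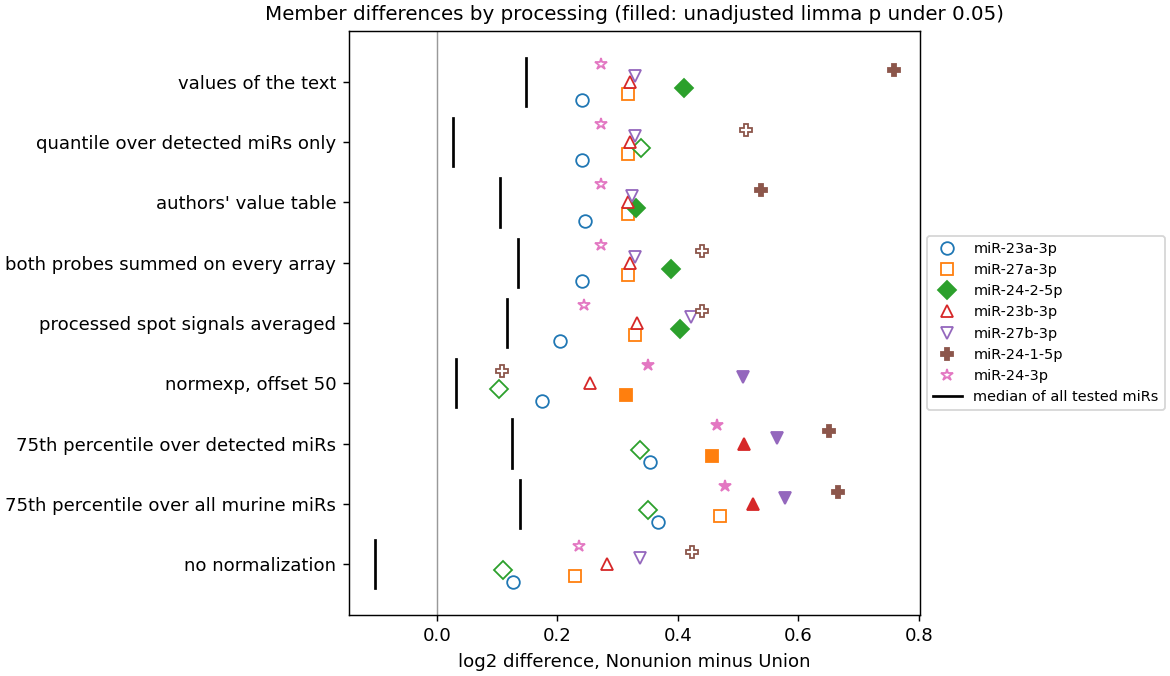
Log2 difference, Nonunion minus Union, of the 7 arms under 9 ways of processing, 1 marker per arm, filled where the unadjusted limma p was under 0.05, with the median of all tested miRs as a black line. Every marker lies to the right of 0 and of its black line, while the filled arms change from one way to the next.

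Each detected arm was measured by 2 probes with its 40 spots divided between them, which serve as a check within the array. All 14 probes of the 7 arms had a higher mean log2 signal in the Nonunion group before normalization. The probes of the same arm differed in this difference by 0.0021 for miR-23b-3p to 0.044 for miR-27b-3p on the log2 scale. The merged signal of an arm is the sum of its probes. For 6 of the 7 arms it held both probes on all arrays.

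For miR-24-1-5p it did not. On P13, P14, P15 and P17 the merged signals of 22.3, 21.8, 22.2 and 18.9 were the sums of both probes. On P16, P18, P19 and P20 the merged signals of 9.54, 10.4, 12.2 and 13.3 were those of the brighter probe alone, and the signals of 3.16, 3.45, 4.19 and 4.08 of the dimmer probe were left out. The merged signal thus held both probes on 3 of 4 Nonunion arrays and on 1 of 4 Union arrays. With both probes summed everywhere and normalized in the same way, miR-24-1-5p measured 4.55, 4.36, 4.56 and 4.06 in the Nonunion group and 3.83, 3.58, 4.09 and 4.28 in the Union group. P16 then lay below P19 and P20, and P20 came close to P14.

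The difference of miR-24-1-5p was 0.44 (SE 0.22) with both probes in place of 0.76, with a limma p of 0.0722, an adjusted p of 0.367 and an exact permutation p of 0.0857. Before normalization it was 0.22 in place of 0.42, and 0.21 and 0.25 for the probes taken singly. The other 6 arms kept their groups apart or overlapping as before, with 3 of 7 arms apart and higher against 1.94% of all tested miRs. MiR-24-2-5p had a difference of 0.39 (SE 0.17) and a limma p of 0.0468, and was the 1 arm under 0.05, against 8.71% of all tested miRs in this direction. Over the 310 tested miRs, the merged signal held all probes on all arrays for 219, on no array for 41 and on some arrays only for 50, judged at a relative tolerance of 0.001.

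**Figure D4:**
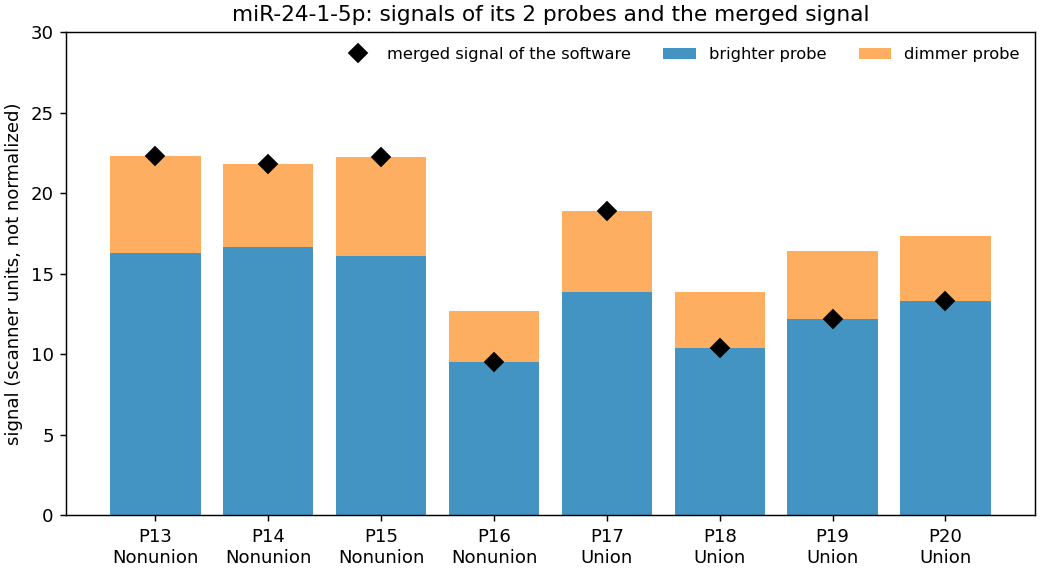
Signals of the brighter probe (blue) and the dimmer probe (orange) of miR-24-1-5p in scanner units, stacked for each array, with the merged signal of the software as a black diamond. On P16, P18, P19 and P20 the diamond sits on top of the blue bar and leaves out the dimmer probe, and on the other 4 arrays it sits on the full height.

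To ask whether related arms differed between the groups by unequal amounts, 8 ratios of arms on the same array were compared by two-sided exact permutation, with Benjamini-Hochberg adjustment over the 8. A log2 ratio is free of any scaling common to the array. These ratios were taken after quantile normalization, which is not such a scaling, so they still depend on it. Without normalization, for example, miR-24-1-5p over miR-24-3p differed by 0.19 in place of 0.49, and miR-24-2-5p over miR-24-3p by -0.13 in place of 0.14. Between the clusters, the ratio of miR-23a-3p to miR-23b-3p differed by -0.08 (exact p = 0.486) and that of miR-27a-3p to miR-27b-3p by -0.01 (exact p = 0.943). The seeds of the former pair were not compared, for want of a sequence of miR-23b-3p. For the latter, whose arms share a seed, the ratio ran from 1.23 to 1.47 in the Nonunion group and from 1.11 to 1.68 in the Union group. Whether the probes tell these near-equal arms apart was not tested. Within a cluster, miR-23a-3p over miR-27a-3p differed by -0.08 (exact p = 0.343), miR-23b-3p over miR-27b-3p by -0.0078 (exact p = 0.971) and miR-27a-3p over miR-24-3p by 0.05 (exact p = 0.743).

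For the passenger arms, miR-24-2-5p over miR-24-1-5p, the arms of equal seed, differed by -0.35 (exact p = 0.143), and over its own guide miR-24-3p miR-24-2-5p differed by 0.14 (exact p = 0.286). MiR-24-1-5p over miR-24-3p had the smallest p of the 8, with -7.01 to -6.77 in the Nonunion group and -7.73 to -6.93 in the Union group, a difference of 0.49 (exact p = 0.0571, adjusted 0.457). The ratios of miR-24-2-5p to miR-24-1-5p and of miR-24-1-5p to miR-24-3p use the merged signal that left out a probe on 4 arrays. With both probes summed on every array they differed by -0.05 (exact p = 0.686) in place of -0.35 and by 0.17 (exact p = 0.343) in place of 0.49. None of the 8 ratios passed the threshold, which does not show that the arms of the clusters moved alike.

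MiR-128-3p, known to overlap with miR-27 in its seed shifted by 1 base, was compared as a near relative, and its sequence is shown for that shift.
miR-128-3p: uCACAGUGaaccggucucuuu
Its difference was 0.35 (SE 0.30), with a limma p of 0.270 and an adjusted p of 0.447, and its groups overlapped. Among the 840 murine miRs of the array that RefSeq names, which do not include miR-23b-3p, no further miR had the seed of a detected arm.

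Since miR-23a is one of several miRs known to bind the messenger of Runx2, the others of this kind were read from the same fit. Of 10 on the array, 5 were detected on all arrays, and 0 had a limma p under 0.05 in either direction. Their median difference was -0.08, against 0.15 over all tested miRs. The differences were 0.55 (SE 0.33) for miR-34c-5p, 0.33 (SE 0.36) for miR-218-5p, -0.08 (SE 0.51) for miR-338-3p, -0.38 (SE 0.21) for miR-30c-5p and -0.52 (SE 0.36) for miR-133a-3p, which is also a muscle miR. MiR-204-5p was detected on 7 arrays, and miR-135a-5p, miR-137-3p, miR-205-5p and miR-217-5p on none.

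The miRs of the tissues that callus can hold moved with the groups in places. All 4 cartilage miRs, the arms of miR-140 and of miR-455, had a limma p under 0.05 and were higher in the Nonunion group, against 9.68% of all tested miRs, with a median difference of 1.43. Their adjusted p in limma were 0.288 to 0.313, and the groups overlapped for each of them. Their summed signal was 897 to 3925 on the Nonunion arrays and 442 to 1033 on the Union arrays, highest on P16, where the cluster arms were lowest in their group. Of the 3 tested leukocyte miRs, 1 passed the threshold and was lower in the Nonunion group, against 4.19% of all tested miRs. It was miR-223-3p, with a difference of -1.13 (SE 0.49) and, from limma, an unadjusted p of 0.0464 and an adjusted p of 0.346. The summed signal of the leukocyte miRs was 3377 to 4831 in the Nonunion group and 4888 to 22220 in the Union group, with no overlap. Taken singly, only miR-223-3p had groups apart, against 2.58% of all tested miRs in this direction. The groups overlapped for miR-142-3p (-0.65, limma p 0.152) and miR-142-5p (-0.38, limma p 0.386). MiR-223-5p was not detected.

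For the remaining tissues 0 miRs passed the threshold. The median difference was -0.30 over 4 tested muscle miRs, whose summed signals were 23692 to 57217 and 38864 to 64562 in the Nonunion and Union groups. Of these, miR-206-3p was higher in the Nonunion group (0.44), and miR-1a-3p (-0.45), miR-133a-3p (-0.52) and miR-133b-3p (-0.15) were lower. The muscle miRs miR-208b-3p and miR-499-5p, detected on 2 and 5 arrays, were not tested. The median difference was -0.30 over 3 miRs of red blood cells, with sums of 3430 to 10128 and 3014 to 9722. For the arms of miR-126, the endothelial miR, it was -0.31, with sums of 2236 to 2608 and 2529 to 3619. The part of these tissues in the differences of the cluster arms was not tested.

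The miRs whose pattern over the 8 arrays was most like the mean of miR-23a-3p, miR-27a-3p and miR-24-3p were miR-500-3p (Pearson r = 0.951), miR-23b-3p (0.951), miR-362-3p (0.946), miR-532-3p (0.945) and miR-362-5p (0.937). MiR-24-2-5p and miR-24-1-5p ranked 7 and 8 (r = 0.907 and 0.867), and miR-27b-3p ranked 17 (r = 0.816). The hairpins of miR-500, miR-362 and miR-532 lie within the gene Clcn5 on chromosome X in GRCm38.p6. Their 4 arms had differences of 0.45 for miR-500-3p, 0.37 for miR-362-3p, 0.50 for miR-532-3p and 0.61 for miR-362-5p. MiR-24-1-5p was most like miR-24-2-5p (r = 0.891), miR-23a-3p (0.888), miR-23b-3p (0.888), miR-27a-3p (0.819) and miR-132-3p (0.778). These correlations describe 8 arrays of 1 slide, which share the group difference and the normalization, and carry no test.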

How the data were processed

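Callus RNA of 8 mice was labelled with Cy3 and hybridized to 8 Agilent 1-colour miRNA arrays. The authors deposited the Feature Extraction 10.10.1.1 output of each array, which holds linear intensity values (spot signals and a merged signal per miR) and detection calls, and a table of log2 values.

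Merged signals of the murine miRs, those not detected at 0.1, were put on a log2 scale and quantile normalized. The 310 miRs detected on all arrays were fitted with limma 3.58.1 (R 4.3.3, lmFit and eBayes, two-sided, Benjamini-Hochberg over all tested). Python 3.11.15, numpy 2.4.6, pandas 2.3.3, scipy 1.17.1 and matplotlib 3.10.9 served for the rest. The fit was tested on simulated data. The SE and p of limma rest on a variance that eBayes draws toward that of all tested miRs, and not on the spread of a single arm between the mice alone. The number of mice limits the precision.

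Alternatives were other normalizations, background corrections (normexp with an offset of 50 on the median spot signals) and filters, a floor of 1, the authors' table, the methods' t-test, each array left out, and the sum of all probes, which was added after the data were seen.

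The arms and lists were chosen with earlier results of these data known. Named are all arms of the clusters, miRs that share a seed and miR-128-3p, the tissue and Runx2 lists, and the 5 miRs most like either of 2 profiles. The red blood cell miR-486-5p was not found under that name. Sequences and positions are RefSeq's (GRCm38.p6).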

Additional observations from a re-analysis of the deposited data

Results flagged for a closer look

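In the ratio of miR-23a-3p to miR-23b-3p, P16 stood apart from the other 3 Nonunion arrays, with a log2 ratio of 1.45 against 1.14 to 1.18. The gap was 0.877 of the range of the group, above the critical value of Dixon for 4 samples. The Union arrays ran from 1.14 to 1.52, so that the value lay within their range. Of 30 groups of 4 values examined in this way 1 stood out, and chance gives about 1 in 20, or 1.5.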

How the results depend on the processing

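All 7 arms kept the direction of their difference in the 12 alternatives and with each of the 8 arrays left out, but not their side of the unadjusted limma threshold. MiR-24-2-5p no longer passed with scaling to the 75th percentile of the detected miRs (0.34) or of all (0.35), no normalization (0.11), quantile normalization over the detected miRs only (0.34) or normexp (0.10). MiR-24-1-5p no longer passed with no normalization (0.42), quantile normalization over the detected miRs (0.51), averaged spot signals (0.44), normexp (0.11) or both probes summed (0.44). Arms that passed only elsewhere were miR-23b-3p (0.51 and 0.52), miR-27b-3p (0.56 and 0.58) and miR-24-3p (0.46 and 0.48) with the 75th percentile over the detected and over all miRs, miR-27a-3p (0.46) with the former, miR-27a-3p (0.31), miR-27b-3p (0.51) and miR-24-3p (0.35) with normexp, and miR-23a-3p (0.24) and miR-27a-3p (0.32) with no filter and in the methods' t-test. With no filter and in the methods' t-test the values and differences were those of the text, and only the variance estimate behind p changed. For miR-23a-3p the limma p with no filter was 0.00469 and the p of the t-test 0.00492, against a limma p of 0.171. For the other settings the cause was not tested, apart from the probe sum.

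The number of arms that passed changed. The share of all tested miRs that passed with the Nonunion group higher is in brackets. The number was 2 in the text (9.68%), 5 (10.3%) with the percentile over the detected miRs and 4 (10.6%) with that over all. It was 0 with no normalization (6.13%) and with quantile normalization over the detected miRs (6.77%). Averaged spots (10%) and summed probes (8.71%) gave 1 arm each. The fit with no filter (2.22% of 1079 miRs) and the methods' t-test (7.1%) gave 4 each. The number of all tested miRs with an adjusted p under 0.05, 1 in the text, was 0 with the percentile over all miRs, no normalization, normexp and the t-test, 2 with quantile normalization over the detected miRs and with no filter, and 3 with miRs detected on all arrays of 1 group.

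Leaving out each array gave differences of 0.20 to 0.29 for miR-23a-3p, 0.28 to 0.37 for miR-27a-3p, 0.35 to 0.46 for miR-24-2-5p, 0.23 to 0.41 for miR-23b-3p, 0.19 to 0.47 for miR-27b-3p, 0.60 to 0.88 for miR-24-1-5p and 0.21 to 0.40 for miR-24-3p. MiR-24-1-5p passed in all 8 of these fits, but they used its merged signal, which left out a probe on some arrays. With both probes summed and no array left out, it did not pass (limma p 0.0722). MiR-24-2-5p did not pass without P13, P14, P15, P17 or P18 (limma p 0.0628 to 0.129), and miR-27b-3p passed without P19 (0.47). The number of arms that passed was 1 to 3. Of all tested miRs, 3.55% (without P17) to 27.4% (without P19) passed and were higher in the Nonunion group. Over all tested miRs the number that passed was 18 to 115 of either direction, against 43. The highest count was without P19, and after adjustment the number was 0 to 12.

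The ratio of miR-27a-3p to miR-24-3p turned to -0.0083 with the percentile over the detected miRs and with no normalization and to -0.0366 with normexp. MiR-24-2-5p over miR-24-3p turned to -0.127 and -0.247 in the same settings, and miR-24-1-5p over miR-24-3p to -0.244 with normexp. MiR-27a-3p over miR-27b-3p reached an exact p of 0.0286 with normexp, at -0.19. With each array left out, the 8 ratios ran, in the order of the report, from -0.132 to -0.0294, -0.106 to 0.0946, -0.108 to -0.0350, -0.0802 to 0.0428, -0.0454 to 0.107, -0.449 to -0.212, 0.0380 to 0.221 and 0.374 to 0.621. The dim passenger arms limit what can be read from their ratios. No paired analysis was made, because the groups held different mice and the labels name no pairs.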
